A study of Arabidopsis thaliana with 9 samples.

Results

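Flowering Locus C (FLC), 5 paralogs of it, its partner Short Vegetative Phase (SVP) and 3 genes that act below them in the control of flowering were followed in whole seedlings of Arabidopsis thaliana. These 10 loci, of 33602 in the deposited count table, were chosen by name for their place in the pathway. No measured value entered the rule, but the choice was made with earlier results of these data known. They are FLC (AT5G10140), Flowering Locus M (FLM, also MAF1, AT1G77080), MADS Affecting Flowering 2 to 5 (MAF2, AT5G65050; MAF3, AT5G65060; MAF4, AT5G65070; MAF5, AT5G65080), SVP (AT2G22540), Suppressor of Overexpression of Constans 1 (SOC1, also AGL20, AT2G45660), Flowering Locus T (FT, AT1G65480) and Agamous-like 42 (AGL42, AT5G62165). FLC was higher in both mutant lines than in Col-0, SOC1, FT and AGL42 were lower in both, and no difference from Col-0 was called for the other 6 genes.

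The series set 2 lines with mutations in EMB1579 (also RSA1), emb1579-1 and emb1579-3, beside the wild type Col-0, and its stated question was the gene's part in root growth and development. All seedlings were in the Col-0 background, were kept 3 days in the cold for stratification on MS medium, and were collected whole after 6 days at 20 °C, with no treatment in any group. Used here were 3 libraries labelled emb1579-1, 3 labelled emb1579-3 and 2 of Col-0. Col-0 replicate 3, with 1179413 counts, was left out. Over nuclear genes its levels correlated with those of any other library at most at r = 0.343. The 8 libraries used correlated with each other at r = 0.982 to 0.997. The part of depth in that low correlation was not tested. The type of each allele is not in the labels, nor is the time of day of the harvest. Whole seedlings mix root and shoot, so fewer cells of a type and less RNA per cell cannot be told apart in any value below.

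FLC, FLM, MAF2 to MAF5 and SVP encode MADS-domain repressors of flowering. They bind DNA as dimers and larger complexes at CArG boxes, and FLC with SVP is known to hold down FT in the leaf and SOC1 at the shoot tip. FLC is silenced by prolonged cold through Polycomb marks and is kept low in Col-0, which carries an inactive Frigida allele, by the autonomous pathway. FT encodes the mobile flowering signal made in phloem companion cells, and SOC1 and AGL42 are MADS-box genes that promote flowering.

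The clade members are close copies, which is why their sequences come first: reads counted for FLC have to be told apart from those of 5 relatives. The first 60 coding bases, from RefSeq on TAIR10.1, are given below with capitals for each base that differs from FLC. They lie at chr5:3179280-3179339 on the minus strand for FLC, chr1:28955679-28955738 for FLM, chr5:25982415-25982474 for MAF2, chr5:25987527-25987586 for MAF3, chr5:25992310-25992369 for MAF4 and chr5:25997671-25997730 for MAF5, all on the plus strand, and chr2:18810134-18810193 on the minus strand for SOC1, shown as a more distant MADS-box gene. The MAF5 model starts 21 bases earlier in the same frame, and its sequence is taken from the ATG that matches the others.
FLC: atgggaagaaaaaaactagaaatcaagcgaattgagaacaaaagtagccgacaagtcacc
FLM: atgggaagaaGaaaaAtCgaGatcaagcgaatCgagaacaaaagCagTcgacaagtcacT
MAF2: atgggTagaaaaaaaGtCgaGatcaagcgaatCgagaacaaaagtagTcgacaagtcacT
MAF3: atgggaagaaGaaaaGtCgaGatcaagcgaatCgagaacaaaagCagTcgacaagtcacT
MAF4: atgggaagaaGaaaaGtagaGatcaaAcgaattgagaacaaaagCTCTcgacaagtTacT
MAF5: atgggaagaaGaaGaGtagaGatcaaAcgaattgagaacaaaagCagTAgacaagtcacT
SOC1: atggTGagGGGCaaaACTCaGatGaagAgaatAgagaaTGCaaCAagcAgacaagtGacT

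Over the first 180 coding bases, which hold most of the MADS domain, FLC shared 85.0% of its bases with MAF2, 83.3% with FLM, 82.2% with MAF3, 81.7% with MAF5 and 81.1% with MAF4, against 62.8% with SVP, 62.8% with SOC1 and 62.2% with AGL42. MAF2 and MAF3 were the closest pair of the clade at 94.4%. Of all 50-base windows of each gene's exons, none of FLC recurred elsewhere in the genome. The shares that recurred were 2.46% for MAF3, 0.280% for FLM and 0% for the other 8 genes. The sources used here give neither read length nor how shared reads were handled, so counts of genes with recurring windows are uncertain to that extent.

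On TAIR10.1, FLC lies on chromosome 5 from 3173382 to 3179448 on the minus strand, and a long non-coding RNA is annotated over it on the plus strand. FLC is known to have antisense transcripts, called COOLAIR. Whether counting used strand is not given, so reads of FLC and of an antisense RNA cannot be told apart. MAF2, MAF3, MAF4 and MAF5 stand side by side on chromosome 5 between 25982254 and 26002619. FLM lies on chromosome 1 from 28955483 to 28960234, SVP on chromosome 2 from 9579647 to 9583901, SOC1 on chromosome 2 from 18807505 to 18811125, FT on chromosome 1 from 24331373 to 24333999, and AGL42 on chromosome 5 from 24964646 to 24968607. No other gene overlapped these 9 loci.

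The 8 libraries held 24055325 to 37518182 counts each, of which 45.8 to 49.6% came from chloroplast and mitochondrial genes. Levels are given as CPM, the read counts of a gene scaled to a common library total, on totals adjusted by edgeR's TMM method. Differences are log2 fold changes over Col-0 from edgeR's quasi-likelihood test, with Benjamini-Hochberg adjustment over the 20668 genes tested, and a gene is called when the adjusted p is under 0.05. Both mutant lines were compared with the same 2 Col-0 libraries, so their results are not independent of each other. Col-0 replicate 2 carried scattered reads: 5732 nuclear genes with no read in the other 7 libraries had a median of 3 counts there, while in each other library the median over such genes was 0.

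EMB1579, the mutated gene, was read as a check of the labels. It was called lower in the libraries labelled emb1579-3 but not in those labelled emb1579-1, so this check does not bear out the emb1579-1 label. Its level was 46.8, 48.9 and 47.7 CPM in the libraries labelled emb1579-1 and 2.11, 1.08 and 1.13 CPM in those labelled emb1579-3, against 48.6 and 48.9 CPM in Col-0. The log2 fold change was −0.03 ± 0.11 (SE, adjusted p = 0.900) in the libraries labelled emb1579-1 and −5.07 ± 0.15 (adjusted p = 6.91e-12) in those labelled emb1579-3. A mutation that leaves the transcript level unchanged would not show in this check. The 3 table columns taken as emb1579-3 carry another prefix number than the labels do, and were assigned as the only columns left once all other names matched. Below, emb1579-1 stands for the libraries so labelled.

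All 10 genes passed the filter on low counts. In the libraries labelled emb1579-1, 1 was called higher and 3 lower, where 17.8% of all genes tested were called (8.27% higher and 9.54% lower). In emb1579-3 the counts were again 1 higher and 3 lower, where 20.3% of all genes were called (9.95% higher and 10.3% lower). The same 4 genes, FLC, SOC1, FT and AGL42, were called in the same direction in both lines, as were 13.4% of all genes tested (6.26% higher and 7.1% lower). DESeq2 called 3 of the 10 in emb1579-1, leaving out FT, and 4 in emb1579-3. The median log2 fold change over the 10 was −0.40 in emb1579-1 and −0.16 in emb1579-3, beside 0.00 over all genes tested in each comparison.

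**Figure D1:**
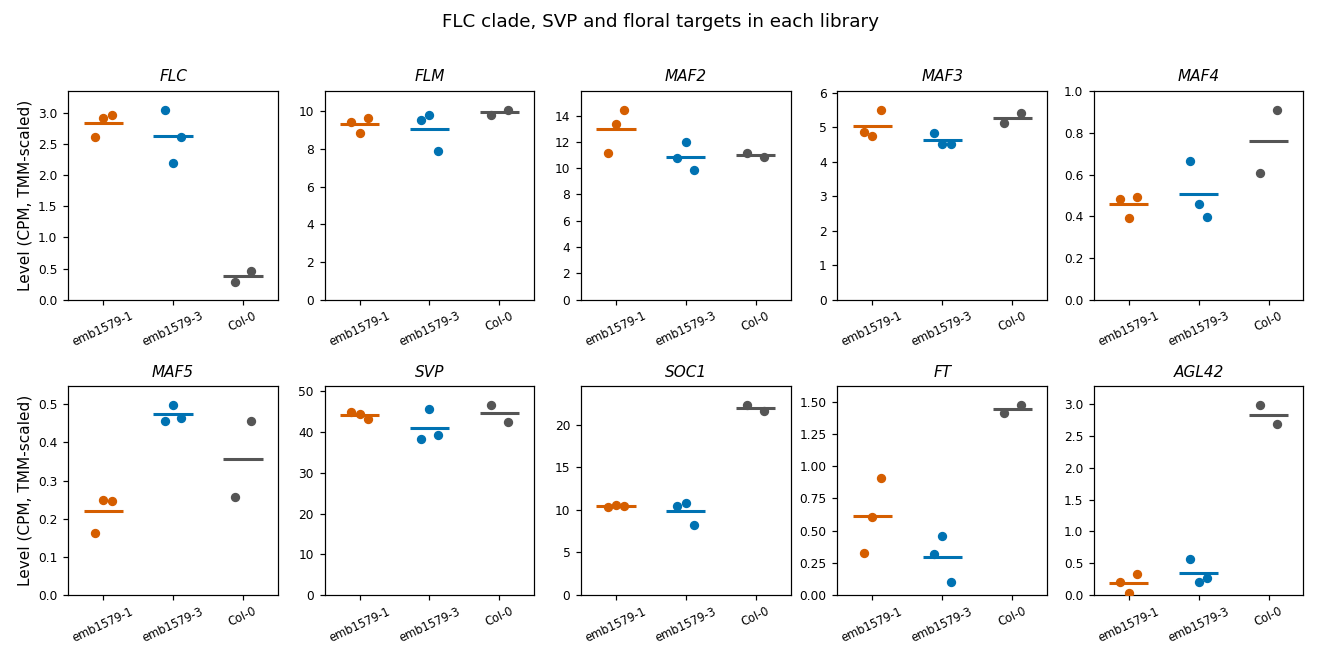
Level of each gene in CPM on TMM-scaled totals, 1 panel per gene with its own axis from 0, for the 3 libraries labelled emb1579-1, the 3 labelled emb1579-3 and the 2 of Col-0. Points are libraries and bars are group means. FLC sits between 2.20 and 3.06 CPM in the mutant libraries and at most at 0.456 CPM in Col-0, while SOC1, FT and AGL42 lie below Col-0 in all 6 mutant libraries. Of all genes tested, 22.9% in emb1579-1 and 24.7% in emb1579-3 had every mutant library below Col-0. The shares with every mutant library above Col-0 were 21.8% and 24.2%.

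FLC rose in both lines. It had 2.62, 2.93 and 2.97 CPM in the libraries labelled emb1579-1 (65, 82 and 72 reads) and 3.06, 2.20 and 2.62 CPM in emb1579-3 (87, 53 and 79 reads), against 0.289 and 0.456 CPM in Col-0 (9 and 17 reads). Every mutant library lay above both Col-0 libraries, and the lowest of them was still several times the higher Col-0 value. Among all genes tested, 21.8% in emb1579-1 and 24.2% in emb1579-3 likewise had all mutant libraries above Col-0.

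The difference in FLC was a log2 fold change of 2.89 ± 0.29 (SE, adjusted p = 1.73e-06) in emb1579-1 and 2.79 ± 0.29 (adjusted p = 2.06e-06) in emb1579-3. These are 7.42-fold and 6.90-fold, with 95% intervals on the log2 scale of 2.29 to 3.49 and 2.19 to 3.39. Ranked by log2 fold change, FLC was the 26th highest of 20668 genes in emb1579-1 and the 37th in emb1579-3. The Col-0 level rests on 26 reads in all, and the scattered reads of Col-0 replicate 2 touch it: without that library the log2 fold change was 3.27 in emb1579-1 and 3.16 in emb1579-3, while leaving out Col-0 replicate 1 gave 2.64 and 2.53. Among the fits that tested FLC, its call was lost only when Col-0 replicate 3, shallow and poorly correlated with the rest, was added. The adjusted p in edgeR was then 0.334 in emb1579-1 and 0.344 in emb1579-3.

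The other 5 clade genes showed no called difference in either line. FLM, which acts with SVP in the response to temperature, had 9.44, 8.85 and 9.64 CPM in emb1579-1 and 9.53, 9.80 and 7.87 CPM in emb1579-3, against 9.83 and 10.09 CPM in Col-0. Its log2 fold change was −0.10 ± 0.12 (adjusted p = 0.629) in emb1579-1 and −0.14 ± 0.12 (adjusted p = 0.457) in emb1579-3. All 6 mutant libraries were below both Col-0 libraries, but by less than the spread among emb1579-3 libraries. In all, 44.7% of all genes tested in emb1579-1 and 48.9% in emb1579-3 had mutant libraries that did not overlap Col-0.

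MAF2, known to delay flowering after short spells of cold, had 11.1, 13.3 and 14.5 CPM in emb1579-1 and 10.8, 11.96 and 9.87 CPM in emb1579-3, against 11.1 and 10.9 CPM in Col-0. The groups overlapped, with log2 fold changes of 0.24 ± 0.12 (adjusted p = 0.196) and −0.02 ± 0.12 (adjusted p = 0.928). In emb1579-1 alone, the call for MAF2 turned on 1 library: without emb1579-1 replicate 1 its log2 fold change was 0.34 (adjusted p = 0.0414). MAF3 averaged 5.05 ± 0.41 CPM in emb1579-1 and 4.63 ± 0.19 CPM in emb1579-3 (SD, n = 3 each), and 5.28 ± 0.20 CPM in Col-0 (n = 2). Its log2 fold changes were −0.07 ± 0.14 (adjusted p = 0.800) and −0.19 ± 0.14 (adjusted p = 0.383).

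MAF4 and MAF5 were near the limit of detection, at 4 to 34 reads per library. MAF4 had 0.484, 0.393 and 0.494 CPM in emb1579-1 and 0.668, 0.457 and 0.399 CPM in emb1579-3, against 0.610 and 0.913 CPM in Col-0. Its estimates were low in both lines but wide, at −0.75 ± 0.41 (adjusted p = 0.228) and −0.59 ± 0.40 (adjusted p = 0.333). They also depended on the Col-0 library. Without Col-0 replicate 2, the one with scattered reads, they were −0.43 and −0.27, and without Col-0 replicate 1 −0.98 and −0.83. MAF5 had 0.161, 0.250 and 0.247 CPM in emb1579-1 and 0.457, 0.498 and 0.465 CPM in emb1579-3, against 0.257 and 0.456 CPM in Col-0. All 3 emb1579-1 libraries lay below both Col-0 libraries, as for 22.9% of all genes tested, and all 3 emb1579-3 libraries lay above them, the lowest of them only just, as for 24.2%. The log2 fold changes of MAF5 were −0.71 ± 0.53 (adjusted p = 0.409) and 0.38 ± 0.47 (adjusted p = 0.636). For MAF5 they were −0.22 and 0.86 without Col-0 replicate 2, and −1.02 and 0.06 without Col-0 replicate 1. At this depth an estimate as far from 0 as −0.75 for MAF4 was not called, so changes larger than these errors could go undetected in either gene.

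**Figure D2:**
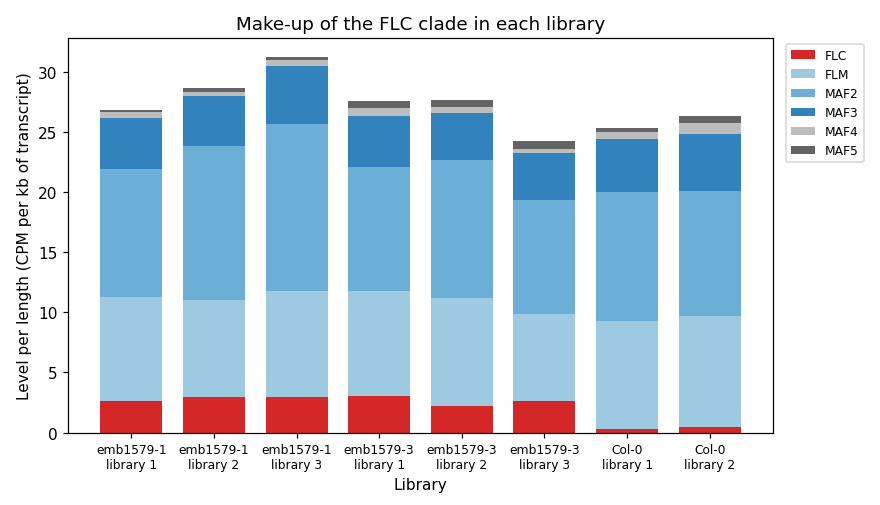
Level per length of the 6 clade genes (CPM per kb of median RefSeq transcript), stacked for each of the 8 libraries, mutant lines left of Col-0. The red FLC segment at the base is 9.86% of the stack on average in emb1579-1, 10.01% in emb1579-3 and 1.44% in Col-0, while the FLM, MAF2 and MAF3 segments make up most of every stack.

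Since the genes differ in length, levels were compared between them per kb of median transcript. By this length FLC was a minor part of the clade even where it was high: 9.86 ± 0.37% of the clade's summed level per kb in emb1579-1 and 10.01 ± 1.75% in emb1579-3 (SD, n = 3 each), and 1.44 ± 0.42% in Col-0 (n = 2). Its share was larger per kb of all annotated exons. By that length emb1579-1 averaged 2.41 CPM per kb for FLC, 3.84 for MAF2, 3.45 for MAF3 and 2.08 for FLM. In emb1579-3 these were 2.23, 3.21, 3.16 and 2.02 CPM per kb. The 6 genes summed to 30.9 ± 2.3 CPM in emb1579-1 and 28.2 ± 2.1 CPM in emb1579-3, and 27.7 ± 0.7 CPM in Col-0. These sums are given as a description and were not tested.

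The order of levels per kb in emb1579-1 was SVP (28.8), MAF2 (12.5), FLM (8.501), SOC1 (7.20), MAF3 (4.37), FLC (2.85), FT (0.668), MAF4 (0.456), MAF5 (0.278) and AGL42 (0.165 CPM per kb). In emb1579-3 the first 6 kept that order, from SVP at 26.7 to FLC at 2.64 CPM per kb, and the remaining genes ran MAF5, MAF4, FT and AGL42, from 0.599 down to 0.302 CPM per kb. In Col-0 the order was SVP (29.1), SOC1 (15.1), MAF2 (10.6), FLM (9.10), MAF3 (4.57), AGL42 (2.48), FT (1.58), MAF4 (0.761), MAF5 (0.451) and FLC (0.374 CPM per kb). FLC was 6th of 10 in both mutant lines and 10th in Col-0. Neighbours whose libraries overlapped were FT with MAF4 and MAF5 with AGL42 in emb1579-1, FLM with SOC1 and all pairs below FLC in emb1579-3, and MAF5 with FLC in Col-0. Counting all annotated exons instead of the median transcript moved FLM and MAF2 below SOC1 in both mutant lines, and gave FLC the 5th place in both lines and the 9th in Col-0.

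SVP, the partner of FLC, was the most abundant of the 10 and gave no called difference. It had 45.0, 44.5 and 43.3 CPM in emb1579-1 and 38.2, 45.6 and 39.3 CPM in emb1579-3, against 46.7 and 42.5 CPM in Col-0. The groups overlapped, and the log2 fold changes were −0.01 ± 0.09 (adjusted p = 0.957), with a 95% interval of −0.20 to 0.18, and −0.12 ± 0.09 (adjusted p = 0.382), with an interval of −0.31 to 0.07.

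SOC1, which gathers signals from several flowering pathways, fell in both lines. It had 10.4, 10.6 and 10.5 CPM in emb1579-1 and 10.4, 10.8 and 8.27 CPM in emb1579-3, against 22.4 and 21.7 CPM in Col-0. No mutant library came near the Col-0 values, and 5 of the 6 lay between 10.4 and 10.8 CPM. The log2 fold change was −1.07 ± 0.11 (adjusted p = 2.44e-06) in emb1579-1 and −1.17 ± 0.11 (adjusted p = 7.83e-07) in emb1579-3, that is 2.101-fold and 2.25-fold lower. In the same comparisons, 22.9% and 24.7% of all genes tested had every mutant library below Col-0.

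FT, low in every group, fell in both lines. It had 0.323, 0.607 and 0.906 CPM in emb1579-1 (8, 17 and 22 reads) and 0.316, 0.457 and 0.0997 CPM in emb1579-3 (9, 11 and 3 reads), against 1.41 and 1.48 CPM in Col-0 (44 and 55 reads). All 6 mutant libraries were below Col-0, as for 22.9% of all genes tested in emb1579-1 and 24.7% in emb1579-3. Their spread was several-fold within each line. The log2 fold change was −1.24 ± 0.42 (adjusted p = 0.0465) in emb1579-1 and −2.34 ± 0.46 (adjusted p = 0.00142) in emb1579-3. The emb1579-1 call was marginal: it was lost with DESeq2 (adjusted p = 0.0800) and on leaving out any of emb1579-1 replicates 1 or 2, emb1579-3 replicate 1, or either Col-0 library (adjusted p = 0.0569 to 0.149).

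AGL42, a member of the SOC1 group of MADS-box genes, had the lowest log2 fold changes of the 10. It had 0.202, 0.0357 and 0.330 CPM in emb1579-1 (5, 1 and 8 reads) and 0.562, 0.208 and 0.266 CPM in emb1579-3 (16, 5 and 8 reads), against 2.99 and 2.68 CPM in Col-0 (93 and 100 reads). Every mutant library held a small part of the Col-0 level. All mutant libraries lay below Col-0 for 22.9% of all genes tested in emb1579-1 and 24.7% in emb1579-3. The log2 fold change was −3.92 ± 0.45 (adjusted p = 1.12e-05) in emb1579-1 and −3.002 ± 0.40 (adjusted p = 4.47e-05) in emb1579-3, the 17th and the 49th lowest of 20668 genes. The size in emb1579-1 depended on its few reads, at −4.58 without emb1579-1 replicate 3.

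**Figure D3:**
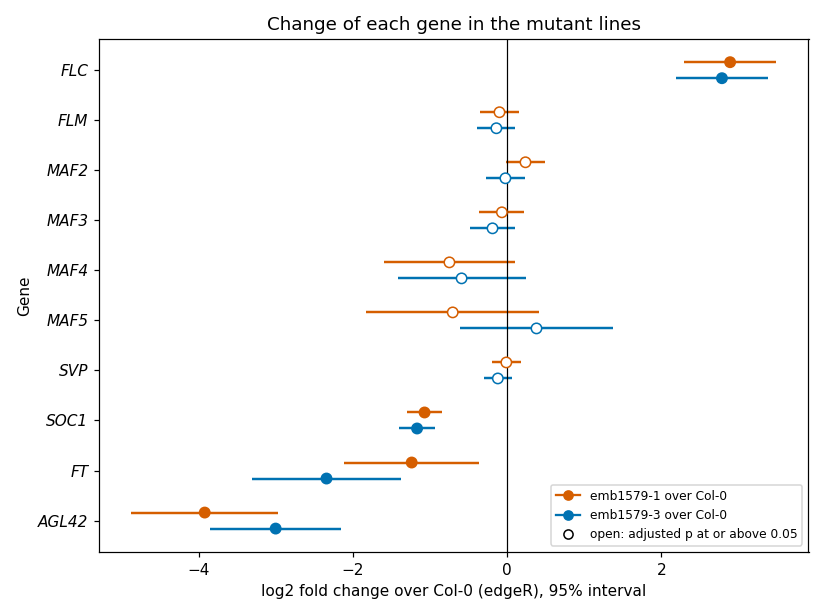
log2 fold change over Col-0 of the 10 genes in emb1579-1 (orange, upper of each pair) and emb1579-3 (blue, lower), with 95% intervals from edgeR. Filled points have an adjusted p under 0.05: FLC at 2.89 and 2.79, SOC1 at −1.07 and −1.17, FT at −1.24 and −2.34, and AGL42 at −3.92 and −3.002. The intervals of FLM, MAF2, MAF3 and SVP stay close to 0, and those of MAF4 and MAF5 are wide.

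CArG boxes, the sites MADS-domain proteins bind, were looked for because the 3 genes that fell include known FLC targets. The search covered the 1000 bases before each annotated start, on both strands, for CC and GG with only A and T in the 6 places between them. No other motif was searched. SOC1 held a box centred 706 bases upstream, AGL42 held 1 at 593 bases, and FLM, whose level gave no call, held 1 at 869 bases. Each is shown in capitals with its flanks, read on the strand of the gene, at chr2:18811817-18811846 (minus), chr5:24964038-24964067 (plus) and chr1:28954599-28954628 (plus) on TAIR10.1.
SOC1: aattttatctCCAAAAAAGGatattttttt
AGL42: gttaagtttgCCAAAATAGGgtaaagaata
FLM: ttatatcgggCCTTTAATGGgcatgtgaat

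No match was found in this window for the other 7 genes. Introns and bases further upstream were not searched, so a box outside the window would be missed. The same search found none for AGL14, AGL19, AGL71 and AGL72, relatives of SOC1 described below. Over all protein-coding genes with a whole window, 1980 of 27443 (7.21%) held such a box, so a match describes the sequence and does not mark a site of binding.

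The lines were also compared with each other. None of the 10 genes was called in emb1579-3 over emb1579-1 by edgeR or DESeq2, where edgeR called 0.818% of all genes tested. Unadjusted p was under 0.05 for 3 of them. MAF5 was 2.12-fold higher in emb1579-3, with log2 1.09 ± 0.48 (adjusted p = 0.478) and all 3 emb1579-3 libraries above all 3 of emb1579-1, a separation that 15% of all genes showed in either direction (7.43% higher and 7.56% lower). FT was lower in emb1579-3, with log2 −1.11 ± 0.49 (adjusted p = 0.478), and MAF2 was lower, with log2 −0.26 ± 0.11 (adjusted p = 0.447). The difference in FLC was −0.11 ± 0.19, with a 95% interval of −0.51 to 0.30, and that in SOC1 was −0.10 ± 0.11, with an interval of −0.32 to 0.12. EMB1579 itself had a log2 fold change of −5.04 in emb1579-3 over the libraries labelled emb1579-1.

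Other MADS-box genes, which include the nearest relatives of SOC1, held 4 called members of 10 tested in each line, all lower: AGL14, AGL19, AGL17 and SEP4. Of all genes tested, 9.54% in emb1579-1 and 10.3% in emb1579-3 were called lower. AGL14, known for a part in root development, had 0.928, 0.785 and 0.577 CPM in emb1579-1 and 0.492, 0.665 and 1.20 CPM in emb1579-3, against 4.34 and 4.81 CPM in Col-0. No mutant library overlapped Col-0, with all below it as for 22.9% of all genes tested in emb1579-1 and 24.7% in emb1579-3. The log2 fold change was −2.57 ± 0.28 (adjusted p = 4.96e-06) in emb1579-1 and −2.52 ± 0.27 (adjusted p = 4.27e-06) in emb1579-3. AGL19, a promoter of flowering under Polycomb control, averaged 0.316 ± 0.250 CPM in emb1579-1 and 0.410 ± 0.215 CPM in emb1579-3 (SD, n = 3 each), and 1.56 ± 0.34 CPM in Col-0 (n = 2). Its log2 fold change was −2.31 ± 0.49 (adjusted p = 0.00296) and −1.92 ± 0.46 (adjusted p = 0.00670), and without Col-0 replicate 2 the emb1579-3 call was lost (adjusted p = 0.0612). Without emb1579-1 replicate 1 the log2 fold change in emb1579-1 was −3.15.

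AGL17, a gene expressed in roots, was at or below 0.352 CPM in every mutant library and at 0.610 and 0.805 CPM in Col-0. Its log2 fold changes, −2.28 ± 0.63 and −2.15 ± 0.62 (adjusted p = 0.0171 and 0.0181), rest on 1 to 10 reads per mutant library, and leaving out Col-0 replicate 2 ended both calls (adjusted p = 0.0970 and 0.101). The emb1579-1 call was also lost without emb1579-1 replicate 2 (adjusted p = 0.0770), and the emb1579-3 call without emb1579-3 replicate 2 or 3 (adjusted p = 0.0701 and 0.0916), while without emb1579-3 replicate 1 the log2 fold change in emb1579-3 was −3.59. SEP4, a floral-organ gene, fell by 1.38 and 0.99 on the log2 scale (adjusted p = 0.000341 and 0.00353). AGL71 and AGL72, the closest relatives of AGL42, had too few reads to be tested: AGL71 had 0 to 2 reads in each mutant library and 2 and 7 in Col-0, and AGL72 had 0 or 1 read in each mutant library and 0 and 9 in Col-0. Of the 6 tested members that were not called, AGL24, which promotes flowering with SOC1, was at −0.24 and −0.14, and Fruitfull was at −0.63 and −0.35 (adjusted p from 0.134 to 0.777 over both genes and lines).

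**Figure D4:**
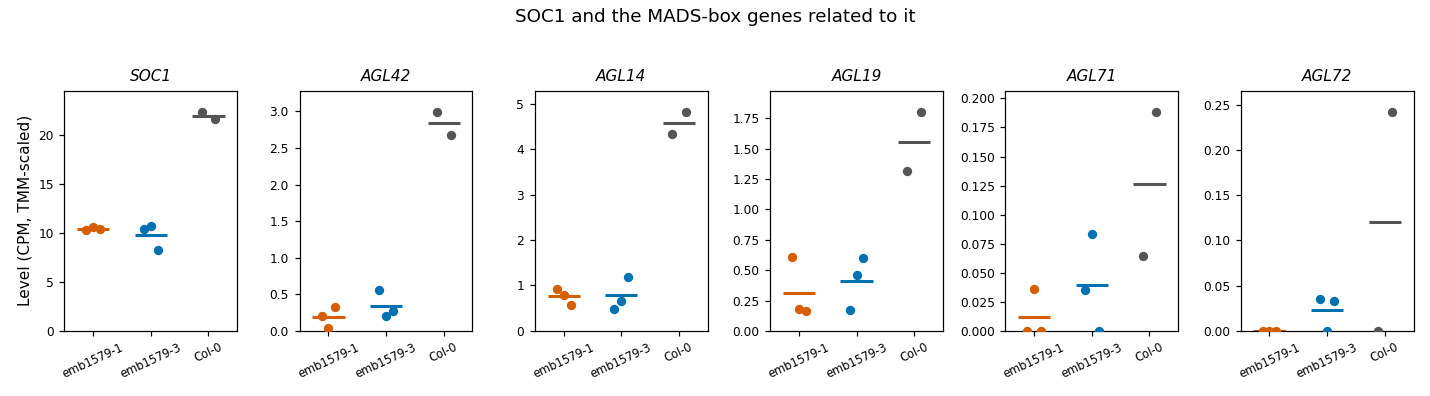
Level in CPM on TMM-scaled totals of SOC1 and 5 related MADS-box genes in each library, 1 panel per gene with its own axis from 0, mutant lines left of Col-0; points are libraries and bars group means. SOC1, AGL42, AGL14 and AGL19 lie lower in all 6 mutant libraries than in both Col-0 libraries, while AGL71 and AGL72 are at most at 0.242 CPM in any library and were not tested. Of all genes tested, 22.9% in emb1579-1 and 24.7% in emb1579-3 had every mutant library below Col-0.

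Genes known to set the level of FLC were read next, beside 17.8% of all genes tested called in emb1579-1 and 20.3% in emb1579-3. In the autonomous pathway, which keeps FLC low, 1 of 11 tested genes was called in each line, FPA, an RNA-binding protein. FPA averaged 32.8 ± 2.3 CPM in emb1579-1 and 30.8 ± 2.6 CPM in emb1579-3 (SD, n = 3 each), and 25.2 ± 0.9 CPM in Col-0 (n = 2), a rise of 0.38 ± 0.09 (adjusted p = 0.00733) and 0.29 ± 0.09 (adjusted p = 0.0321) on the log2 scale. DESeq2 did not call it in emb1579-3 (adjusted p = 0.0508), nor did edgeR without emb1579-3 replicate 1 or 3 or without either Col-0 library (adjusted p = 0.0812 to 0.137), and genes annotated on the opposite strand overlap it. FVE, also MSI4, was at 0.07 ± 0.09 and 0.20 ± 0.09 (adjusted p = 0.632 and 0.127). FY and HDA6 had log2 fold changes of 0.20 to 0.29 in the 2 lines, without a call. Without emb1579-1 replicate 1, FY was called in emb1579-1 (0.37, adjusted p = 0.0280) and HDA6 in emb1579-3 (0.26, adjusted p = 0.0476).

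Among 20 activators of FLC, which include Frigida and its partners and the Paf1 and histone methylation machinery, edgeR and DESeq2 called none in either line. Unadjusted p was under 0.05 for 1 of them in emb1579-1 and 4 in emb1579-3. Their log2 fold changes lay between −0.31 and 0.25, with ELF7 at 0.17 and 0.24, SUF4 at 0.25 and 0.08, VIP4 at 0.17 and 0.21 and ARP6 at 0.03 and −0.31. Of the Polycomb and vernalization genes, 10 of 11 were tested, and neither tool called any of them in either line. Unadjusted p was under 0.05 for 0 in emb1579-1 and 2 in emb1579-3. VEL1 was at −0.11 and −0.22, MSI1 at 0.18 and 0.25, VRN5 at 0.07 and 0.22 and CLF at 0.03 and 0.18. VIN3, which marks exposure to prolonged cold, did not pass the filter and was at most at 0.161 CPM in the mutant libraries and at 0.257 and 0.483 CPM in Col-0.

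Photoperiod genes and regulators of FT gave 4 higher and 2 lower of 18 tested in emb1579-1, where 17.8% of all genes were called in either direction, and 4 higher and 3 lower in emb1579-3, where 20.3% were. Constans, the activator of FT in long days, was at 2.15 CPM in emb1579-1 and 1.95 CPM in emb1579-3 on average, and 2.20 CPM in Col-0, with no call (adjusted p = 0.939 and 0.627). FKF1, a light receptor that removes repressors of Constans, fell by 0.63 ± 0.09 and 0.64 ± 0.09 on the log2 scale (adjusted p = 6.32e-05 and 4.47e-05). A gene annotated on the opposite strand overlaps FKF1. TEM1 and TEM2, direct repressors of FT, rose. TEM1 averaged 97.5 ± 4.2 CPM in emb1579-1 and 86.8 ± 7.1 CPM in emb1579-3, and 63.4 ± 8.9 CPM in Col-0, with log2 fold changes of 0.62 ± 0.10 and 0.45 ± 0.10 (adjusted p = 0.000218 and 0.00284). TEM2 rose by 0.59 ± 0.11 and 0.48 ± 0.11 (adjusted p = 0.00163 and 0.00618). Both TEM1 and TEM2 lost the emb1579-3 call without Col-0 replicate 2 (adjusted p = 0.0799 and 0.0963).

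Of the AP2-like repressors of flowering in that list, TOE2 rose in both lines, by 0.33 and 0.35, TOE1 in emb1579-1, by 0.27, and SNZ fell in both, by 0.62 and 0.54 on the log2 scale. Gigantea, which acts with FKF1, fell by 0.36 ± 0.09 in emb1579-3 (adjusted p = 0.00567, and 0.0974 without Col-0 replicate 1), and was at −0.15 ± 0.09 in emb1579-1 (adjusted p = 0.259). CDF1, a repressor of Constans and FT, rose by 0.49 in emb1579-3 and was at 0.05 in emb1579-1. TOE1, TOE2, SNZ and CDF1 are outside the 4 genes of the list with the smallest adjusted p, and are named after their values were seen.

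In the FT family and its partner FD, 4 of 6 genes were tested and 1 was called in both lines, ATC, a relative of Terminal Flower 1 known to act against FT. Over all genes tested, 13.4% were called in the same direction in both lines (6.26% higher). ATC had 8.55, 8.39 and 8.32 CPM in emb1579-1 and 12.2, 8.64 and 9.97 CPM in emb1579-3, against 2.12 and 4.62 CPM in Col-0. Every mutant library was above Col-0, as for 21.8% of all genes tested in emb1579-1 and 24.2% in emb1579-3. The ratio between the 2 Col-0 libraries was larger than that between the highest and lowest library of either line. The rise was 1.30 ± 0.26 (adjusted p = 0.00749) and 1.59 ± 0.26 (adjusted p = 0.00213) on the log2 scale, and 1.98 and 2.27 without Col-0 replicate 2. FD, the partner of FT at the shoot apex, was at 0.11 ± 0.26 and 0.11 ± 0.25. MFT and BFT, at about 1 CPM or less in each group, were not called. In the age pathway, 4 of 6 genes (SPL4, SPL5, SPL9 and SPL15) were tested, with log2 fold changes from −0.53 to −0.07; neither tool called any in either line, and unadjusted p was under 0.05 for 0.

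**Figure D5:**
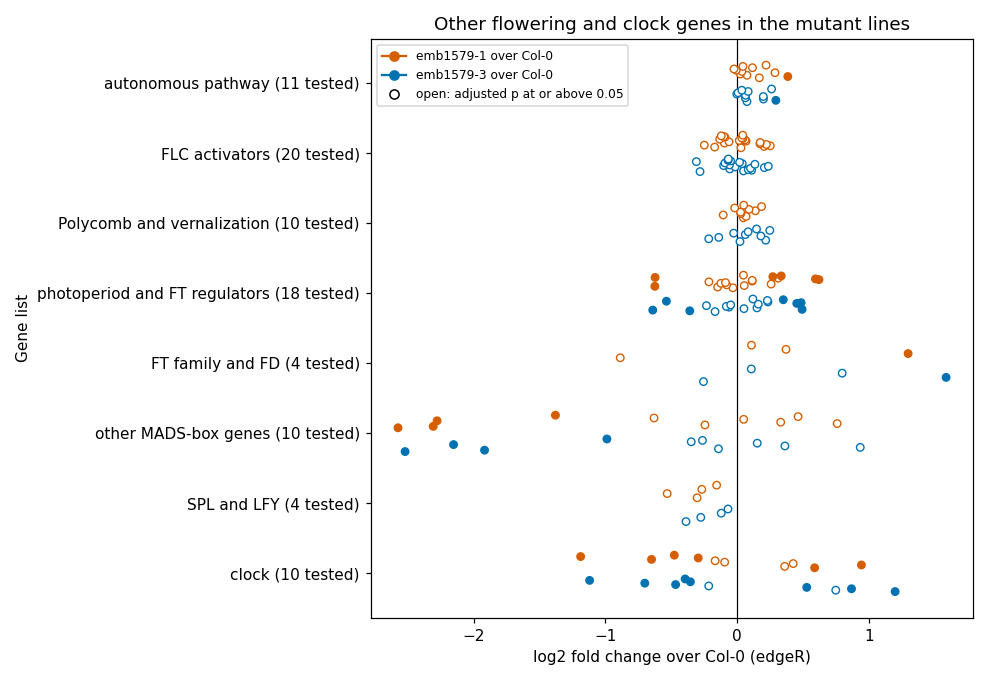
log2 fold change over Col-0 of the other flowering and clock genes, 1 row per list, emb1579-1 in orange (upper) and emb1579-3 in blue (lower); filled points have an adjusted p under 0.05. Points of the autonomous, FLC activator and Polycomb rows stay within 0.4 of 0, and the 4 called genes of the other MADS-box row lie at −0.99 or lower.

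Clock genes, which set the daily timing of Constans and FT, gave 2 higher and 4 lower of 10 tested in emb1579-1, and 3 higher and 5 lower in emb1579-3. The shares over all genes tested were 8.27% higher and 9.54% lower in emb1579-1, and 9.95% and 10.3% in emb1579-3. ELF4, of the evening complex, had 39.4, 32.5 and 33.4 CPM in emb1579-1 and 38.7, 35.3 and 36.4 CPM in emb1579-3, against 80.0 and 79.9 CPM in Col-0. All 6 mutant libraries lay far below Col-0, and it fell by 1.19 ± 0.09 and 1.12 ± 0.09 on the log2 scale (adjusted p = 7.01e-08 and 1.23e-07). Every mutant library lay below Col-0 for 22.9% of all genes tested in emb1579-1 and 24.7% in emb1579-3. TOC1 fell by 0.65 and 0.70, and LUX, which a gene annotated on the opposite strand overlaps, by 0.48 and 0.40. CCA1, a morning gene, rose by 0.59 ± 0.15 (adjusted p = 0.00834) and 1.20 ± 0.14 (adjusted p = 1.03e-05), and leaving out Col-0 replicate 2 ended the emb1579-1 call (adjusted p = 0.0639). A difference in collection time between the groups and a difference in the clock cannot be told apart, because the hour of harvest is not in the labels, and FT, FKF1 and Gigantea cycle over the day.

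Markers of tissues were summed to see how far the make-up of the seedlings moved with these results. The 8 green-tissue markers summed to 12293 to 14352 CPM in emb1579-1 and 12763 to 14133 CPM in emb1579-3, and 13336 to 15205 CPM in Col-0. Of these, edgeR called 0 in emb1579-1, with unadjusted p under 0.05 for 3 and 2 called by DESeq2, and 1 in emb1579-3 (LHCB1.1, higher). The 8 root markers summed to 45.1 to 51.1 CPM in emb1579-1 and 48.8 to 53.3 CPM in emb1579-3, and 43.6 to 46.3 CPM in Col-0. Neither tool called any of them in emb1579-1, where unadjusted p was under 0.05 for 0, and edgeR called 1 in emb1579-3 (PIN2, higher). Beside these counts, edgeR called 17.8% of all genes tested in emb1579-1 and 20.3% in emb1579-3.

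The 3 phloem companion cell markers, from the cells that make FT, summed to 195 to 216 CPM in emb1579-1 and 215 to 222 CPM in emb1579-3, and 217 to 228 CPM in Col-0. SUC2 was called in emb1579-1, at −0.26 ± 0.09 (adjusted p = 0.0429), and was at −0.21 ± 0.09 in emb1579-3 (adjusted p = 0.104). The 4 shoot apex markers summed to 4.52 to 7.32 CPM in emb1579-1 and 4.96 to 8.57 CPM in emb1579-3, and 3.597 to 6.42 CPM in Col-0. CLV3 and WUS were at 0 in the libraries labelled emb1579-1 and at most at 0.188 CPM elsewhere. STM and KNAT1, the 2 apex markers tested, gave no call by either tool, and unadjusted p was under 0.05 for 0 in each line. The part of tissue make-up in the levels of SOC1, FT and AGL42 was not tested.

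The loci around FLC were examined for a change that reached beyond the gene. Of its 5 neighbours on each side, 8 were tested and 1 was called in each line, where 17.8% of all genes tested were called in emb1579-1 and 20.3% in emb1579-3. The called neighbour was TPPI, a trehalose phosphate phosphatase, at −1.43 (adjusted p = 0.00424) and −1.37 (adjusted p = 0.00467), opposite in direction to FLC. The 2 genes flanking FLC directly, AT5G10130 and AT5G10150, were at 0.26 and −0.16 in emb1579-1 and 0.32 and −0.01 in emb1579-3, without a call. These neighbours were named after their values were seen.

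The genes whose pattern over the 8 libraries was most like that of FLC were sought among 8094 tested genes that had an annotated symbol and averaged 1 CPM or more. Likeness was the root mean square difference of log2(CPM + 0.5) values, each centred on the gene's own mean. The nearest were a pectin methylesterase gene (ATPMEPCRB, 0.0976), ACS7, an enzyme of ethylene synthesis (0.175), and SYN1, a meiotic cohesin (0.203). SYN1 averaged 2.43 ± 0.15 CPM in emb1579-1 and 2.23 ± 0.31 CPM in emb1579-3 (SD, n = 3 each), and 0.370 ± 0.387 CPM in Col-0 (n = 2), with log2 fold changes of 2.63 ± 0.40 and 2.51 ± 0.40. Its Col-0 level differed between the 2 libraries, and those fold changes were 4.59 and 4.47 without Col-0 replicate 2. For SOC1 the nearest were MYB93, a regulator of lateral roots (0.0707), FTRA2, a subunit of a plastid thioredoxin reductase (0.0895), and SCPL13, a carboxypeptidase-like protein (0.0968). All 6 were ranked on the libraries used for the comparisons above, so their fold changes describe the choice and are not a further test.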

How the data were processed

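RNA of 9 whole-seedling samples was measured by RNA-seq. The deposited file holds whole-number read counts per gene. The submitters' processing notes list the TAIR10 build and, with no role given, Cuffdiff, Cufflinks, FastQC and HISAT2. The counting tool, its strand setting and software versions are not recorded there. Each column was matched to a sample by name; 3 columns were assigned to emb1579-3 by elimination, and no column of values was left unused.

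Col-0 replicate 3 was left out as the choice of members prescribed. The other 8 libraries entered 1 fit: edgeR 4.0.16 in R 4.3.3, TMM factors, filterByExpr, robust quasi-likelihood test with 5 residual degrees of freedom, genotype as the only term, and Benjamini-Hochberg adjustment over 20668 genes. The fit was tested on simulated data. Standard errors were derived from each log2 fold change and its F statistic. The 10 members, the gene lists and the tissue markers were chosen with earlier results of these data known. Named genes were the members, EMB1579, up to 4 genes of each list with the smallest adjusted p in either line, and the 3 genes most like FLC and SOC1, with a pseudocount of 0.5 CPM. Symbols, lengths and sequences came from RefSeq on TAIR10.1, where 32835 loci matched and 767 did not. Alternatives were DESeq2 1.42.0, RLE factors, 2 other filters on low counts, nuclear genes only, only the groups compared, all 9 libraries, a replicate block, and leaving out each library in turn.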

Additional observations from a re-analysis of the deposited data

Results flagged for a closer look

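CCA1 was the one clock gene that edgeR called between the lines, in a direct test of that difference, where DESeq2 called 2 of the 10. Over all 20668 genes tested, edgeR called 0.818% between the lines and DESeq2 called 269 genes. It had 9.03, 9.22 and 8.17 CPM in emb1579-3, against 4.92, 6.28 and 6.06 CPM in the libraries labelled emb1579-1. The log2 fold change of emb1579-3 over emb1579-1 was 0.61 ± 0.12 (SE, edgeR adjusted p = 0.0195), and the 3 libraries of each line did not overlap, as for 15% of all genes tested. The part of collection time in this difference was not tested.

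FLC was also read in the Col-0 library left out of every comparison. That library held 4 FLC reads among 1179413, or 3.39 CPM of its raw total, where a count of 0 would allow up to 2.54 CPM. Col-0 replicates 1 and 2 had 0.269 and 0.453 CPM of FLC on raw totals. The same library had 5 reads of SVP, 2 each of FLM, MAF4 and SOC1, 1 of AGL42 and 0 of MAF2, MAF3, MAF5 and FT. On raw totals its SVP was at 4.24 CPM, against 43.4 and 42.2 CPM in Col-0 replicates 1 and 2. Its SOC1 was at 1.70 CPM, against 20.8 and 21.5 CPM. MAF4, like FLC, was higher than in those replicates, and the other members were lower. This library correlated with any other at most at r = 0.343. On so few reads its level of FLC cannot be set apart from that of either mutant line or from background reads, and intervals and limits of this kind cover counting error only.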

How the results depend on the processing

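Directions and calls of FLC, SOC1 and AGL42 in both lines, and of FT in emb1579-3, held under DESeq2, RLE factors, no filter, nuclear genes only, only the groups compared, the replicate block and each library left out. The adjusted p of FLC in emb1579-1 ran from 5.02e-22 to 0.334 over its alternatives, and that of FT in emb1579-1 from 0.0102 to 0.516. FT in emb1579-1 lost its call with DESeq2, the block, all 9 libraries and 5 of the 8 left-out libraries. Low counts limit FT, AGL42, MAF4 and MAF5, and only 2 Col-0 libraries support every difference from Col-0; the cause of the changes below was not tested unless stated.

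The fit of all 9 libraries adds Col-0 replicate 3, which correlated with any other library at most at r = 0.343. With all 9 libraries, edgeR called 96 genes in emb1579-1 (3682 without Col-0 replicate 3) and 134 in emb1579-3 (4193), and 0 between the lines (169). Of the 10 members it then called 1 in emb1579-1 (AGL42, adjusted p = 0.0440) and 0 in emb1579-3, and of the flowering and clock genes 0 and 1 (18 and 21). A minimum of 10 CPM in 3 libraries left 2156, 2490 and 104 genes called, 10 and 11 of the lists, and 1 and 1 of the members (SOC1), since it removes FLC, FT and AGL42 from the test. Between the lines DESeq2 called 269 genes and the fit with no filter 569. Leaving out 1 library gave 62 to 350 calls between the lines, 11 to 19 list genes in emb1579-1 and 13 to 23 in emb1579-3, the lowest of both without Col-0 replicate 2. Without Col-0 replicate 1 the calls in emb1579-1 split 1189 higher to 3075 lower, beside 1710 to 1972, and those in emb1579-3 1263 to 3069, beside 2057 to 2136.

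Log2 fold changes that changed sign with all 9 libraries were, in emb1579-1, MAF3 (0.037), SVP (0.30), EMB1579 (0.35), ARP6 (−0.20), VEL1 (0.15), Gigantea (0.35), MFT (−6.13) and FD (−1.17), and in emb1579-3, MAF2 (0.16), SVP (0.19), VEL1 (0.0376), Gigantea (0.13), MFT (−5.71), FD (−1.17) and LUX (0.023); of these, Gigantea and LUX in emb1579-3 were called without that library. SVP in emb1579-1 was 0.00304 with no filter and 0.0119 with the block, EMB1579 was 0.000156 and CLF −0.0358 with the block. Over single libraries left out, emb1579-1 ranges that crossed 0 were SVP −0.0843 to 0.0713, ARP6 −0.0224 to 0.10, VRN5 −0.0040 to 0.17, CLF −0.0358 to 0.10, MFT −0.16 to 0.66 and FD −0.11 to 0.40. In emb1579-3 they were MAF2 −0.0946 to 0.0412, BFT −0.67 to 0.21, FD −0.11 to 0.39, SPL9 −0.22 to 0.0197 and SPL15 −0.33 to 0.10, and between the lines FLC −0.23 to 0.000199, FLM −0.0977 to 0.052, MAF4 −0.0993 to 0.31 and SOC1 −0.16 to 0.0134. None of these was called.

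Replicate numbers were not shown to pair the libraries: of 7 same-numbered pairs, 3 had correlated deviations over 0.1 (r from −0.11 to 0.14), and the numbers of emb1579-3 come from the column names. With the number as a replicate block, 3572, 3831 and 250 genes were called in emb1579-1, emb1579-3 and between the lines, with 3 and 4 members over Col-0 and 0 between the lines, and 17 and 19 list genes; FT in emb1579-1 (adjusted p = 0.0846), ATC in emb1579-1 (0.0598) and FPA in emb1579-3 (0.0578) lost their calls. The alternatives for EMB1579 and for the genes most like FLC and SOC1, and DESeq2, RLE factors and only the groups compared for the gene lists, were chosen after seeing the data.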
